A study of Sus scrofa with 8 samples.

Results

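The genes described here encode the unfolded protein response and the folding machinery of the endoplasmic reticulum (ER). They were chosen as a list of 37 genes, matched by name to the authors' deposited comparison table and then by gene ID to the count table. The rule matched 35 of the 37 to 35 of the 31908 gene models, and all 35 passed the filter on low counts. DNAJB11 was listed in the deposited table only as a one-to-many orthologue and so lies outside the rule, and SDF2L1 was not analysed here.

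The values are counts of read pairs per gene from bulk RNA sequencing of right ventricular free wall, taken from 8 Yorkshire Cross pigs. The 4 banded animals were castrated males whose main pulmonary artery was constricted at 4.5 ± 0.6 weeks of age and 6.4 ± 1.3 kg, so that the right ventricle ejected against a band tightened to a peak systolic pressure of about 30 to 40 mmHg. The 4 controls were of similar age and weight and were kept for 8 weeks, and their labels give no treatment, no sham operation and no sex. Each library is 1 animal, and the labels give no batch, so banding cannot be told apart from surgery, sex or an unrecorded batch.

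Depth was 31400659 to 34169120 counts in banded and 31033679 to 34183338 counts in control libraries. Cardiomyocyte markers were abundant in every library, with 8 of 11 listed markers matched and a summed level of 39200 to 50800 CPM in banded and 29700 to 40300 CPM in control animals. Of these 8, 1 was called higher and 0 lower, and the median log2 fold change was 0.03. The 1 called, MYL2, averaged 17500 CPM in banded and 9260 CPM in control animals. The log2 fold changes of MYL3, TNNI3, MYBPC3 and RYR2 were negative. The TNNI3 model was not abundant, at an average of 6.45 CPM in banded and 15.3 CPM in control animals. Whether it captures the TNNI3 transcripts was not tested. In bulk tissue, fewer cells of a type and less RNA per cell cannot be told apart. Banded 3 stood apart from the other libraries for several genes described here, and log2 fold changes that move by over 1.5 times without it are given both ways.

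Proteins that enter the ER are folded by chaperones such as BiP, the product of HSPA5, and are joined by disulphide bonds made by the protein disulphide isomerases. When unfolded protein accumulates, the membrane sensors ATF6, IRE1 (ERN1) and PERK (EIF2AK3) are activated. ATF6 is cut to release a transcription factor for chaperone genes, IRE1 splices XBP1 mRNA to give a factor for chaperone and degradation genes, and PERK slows translation while favouring ATF4, which drives amino acid synthesis and stress genes. Many targets respond to more than 1 sensor, so the branch given to a gene here is a textbook simplification. Counts per gene show neither the splicing of XBP1 nor the cleavage or phosphorylation of the sensors.

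Right ventricles of banded pigs held more DNAJB9 and MANF mRNA and less CREB3L1 mRNA than those of controls. The count of the DDIT3 gene model, which comes from only part of its exon bases, was also lower. The MANF call ended in 6 of the 8 fits that leave out 1 library, and the CREB3L1 call in 1. These 4 of 35 members changed (11.4%), against 6.97% of all 13697 genes tested (edgeR quasi-likelihood test, adjusted p under 0.05). The central chaperones and disulphide isomerases had small positive log2 fold changes that missed the threshold. Of the 8 PERK branch genes, 5 varied more for their mean between banded animals than between controls. The same held for 27 of all 35 members and for 9194 of all 13697 genes tested. The log2 fold change was positive in 28 of 35 members, against 51.6% of all genes, and its median was 0.22, against 0.02 over all genes. In 8 of 35 members (22.9%) the values of the 2 groups were fully separate, against 15.9% of all genes. Of these 8, 6 lay higher in banded animals (7.66% of all genes did) and 2 lower (8.20% of all genes did). An unadjusted p under 0.05 was reached by 14 of 35, against 23.8% of all genes.

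**Figure D1:**
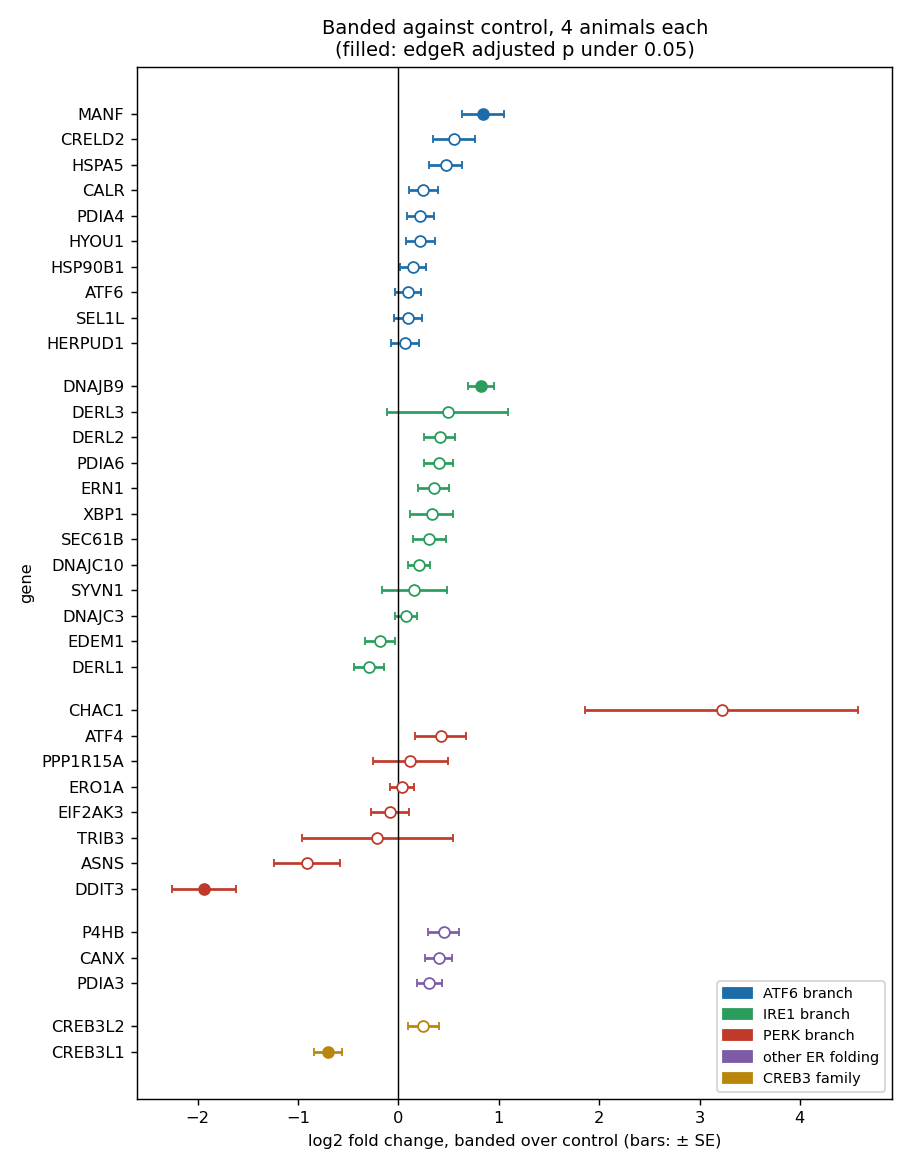
Log2 fold change of banded over control (x axis, ± SE, 4 animals per group) of the 35 genes, ordered within each branch, with filled symbols for an edgeR adjusted p under 0.05. DNAJB9 (0.82) and MANF (0.84) are filled to the right and DDIT3 (-1.94) and CREB3L1 (-0.70) to the left, while the open symbols of CHAC1 and TRIB3 carry wide errors.

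Among the 10 matched genes of the ATF6 branch, 1 was called higher and 0 lower (10%, against 6.97% of all genes). Their log2 fold changes ran from 0.07 to 0.84, with a median of 0.22. MANF, a small secreted ER protein induced by ER stress, held 51.8, 41.5, 67.8 and 62.0 CPM in banded animals 1 to 4, against 25.1, 27.4, 27.7 and 44.4 CPM in controls 1 to 4. Control 4 lay between banded 2 and banded 1, and 3 of 4 banded values lay above all controls. The model of MANF lies on chromosome 13 (33658255 to 33662261, plus strand, Sscrofa11.1). The log2 fold change was 0.84 ± 0.21 (SE), with an edgeR adjusted p of 0.0337. The call ended without banded 1, 3 or 4 (edgeR adjusted p 0.0518, 0.0623 and 0.0662) and without control 1, 2 or 3 (0.109, 0.11 and 0.107), while the log2 fold change stayed at 0.73 to 1.06 in fits that leave out 1 library.

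HSPA5, the central ER chaperone, held 159, 177, 244 and 186 CPM in banded animals and 118, 138, 130 and 165 CPM in controls. Only banded 1 lay below the highest control, and the log2 fold change of 0.47 ± 0.16 missed the threshold (edgeR adjusted p = 0.105). CRELD2, a secreted ER stress gene, was low in all libraries, at 4.77, 7.14, 6.09 and 7.26 CPM in banded animals and 3.40, 4.81, 4.72 and 4.33 CPM in controls (0.55 ± 0.21, edgeR adjusted p = 0.142). The other chaperones were nearer to controls. The log2 fold change was 0.25 ± 0.14 for CALR, the lectin chaperone calreticulin, 0.22 ± 0.13 for the disulphide isomerase PDIA4 and 0.22 ± 0.14 for HYOU1, which recharges BiP.

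HSP90B1, the ER paralogue of HSP90, had the highest level per length of all members, at 103 CPM per kb over the 8 animals. It averaged 380.0 ± 31.6 CPM in banded and 343 ± 21.5 CPM in control animals (SD, n = 4 each), with a log2 fold change of 0.15 ± 0.13. ATF6 itself averaged 53.9 ± 7.31 CPM in banded and 50.3 ± 2.54 CPM in control animals. HERPUD1 and SEL1L, which serve the removal of misfolded proteins from the ER, differed by 0.07 ± 0.14 and 0.10 ± 0.14 on the log2 scale. The HERPUD1 model shares 2872 of its 6049 exon bases with another model on the same strand, so it was measured on the rest. Its exons also fall within the RefSeq bounds of SLC12A3. The lowest edgeR adjusted p among ATF6, HSP90B1, HERPUD1 and SEL1L was 0.523.

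In the IRE1 branch 1 of 12 matched genes was called higher and 0 lower (8.33%, against 6.97% of all genes). The median log2 fold change was 0.32. DNAJB9, a BiP cochaperone known to hold IRE1 inactive, held 17.6, 15.8, 18.2 and 16.8 CPM in banded animals and 9.74, 9.63, 9.22 and 10.2 CPM in controls. The groups were far apart and each was tight, with a coefficient of variation of 6.16% in banded and 4.33% in control animals. The model of DNAJB9 lies on chromosome 18 (36549544 to 36584130, minus strand). Its log2 fold change was 0.82 ± 0.13 (edgeR adjusted p = 0.00453), and it was called under each of the alternatives run (adjusted p 7.77e-06 to 0.0241).

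ERN1 held 39.8, 35.4, 39.9 and 26.5 CPM in banded animals and 26.1, 31.8, 28.5 and 25.1 CPM in controls. Banded 4 fell among the controls, and the log2 fold change was 0.35 ± 0.15 (edgeR adjusted p = 0.192). Exons of this model also fall within the RefSeq bounds of ICAM2 and PRR29, so it may not count ERN1 alone. XBP1 held 67.9, 67.1, 114 and 71.1 CPM in banded animals and 50.5, 55.3, 62.3 and 86.2 CPM in controls. The highest banded animal and the highest control stood clear of their groups, and the log2 fold change was 0.33 ± 0.21 with all libraries and 0.11 without banded 3.

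The further BiP partners and isomerases were not called. DNAJC10, a disulphide reductase, held 80.3, 83.6, 73.0 and 78.1 CPM in banded animals and 64.4, 67.3, 67.9 and 71.8 CPM in controls, so the groups did not overlap, but the log2 fold change was only 0.21 ± 0.11 (edgeR adjusted p = 0.255). DNAJC3, an inhibitor of PERK, averaged 31.7 ± 2.53 CPM in banded and 30.0 ± 1.54 CPM in control animals (SD, n = 4 each). PDIA6, a disulphide isomerase that acts on IRE1, held 83.4, 112, 103 and 83.3 CPM in banded animals and 61.8, 75.2, 73.9 and 77.8 CPM in controls. Its groups did not overlap either, and the log2 fold change was 0.40 ± 0.14 (edgeR adjusted p = 0.107). Exons of the PDIA6 model also fall within the RefSeq bounds of LOC110260057 and ATP6V1C2. DNAJB11, outside the rule, had a log2 fold change of 0.38 ± 0.17.

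The genes of ER-associated degradation went both ways and none was called. DERL2, a channel component, had a log2 fold change of 0.41 ± 0.15 and its paralogue DERL1 one of -0.29 ± 0.15. Exons of the DERL2 model also fall within the RefSeq bounds of MIS12. EDEM1, which marks glycoproteins for degradation, had a log2 fold change of -0.18 ± 0.15. Its model shares 806 of its 5758 exon bases with another model on the same strand. That second model held 939 to 1177 counts in banded and 867 to 909 counts in control libraries (not normalised). Whether EDEM1 transcripts as a whole fell was not tested. DERL1 averaged 80.3 ± 16.2 CPM in banded and 98.2 ± 8.81 CPM in control animals (SD, n = 4 each), with banded 1 to 3 below every control and banded 4 among them. DERL3 was close to absent (0.347 to 0.882 CPM in banded and 0.176 to 0.731 CPM in control animals, with a floor of 3 counts at 0.0878 to 0.0967 CPM, counting error only). SYVN1, the ubiquitin ligase partnered with SEL1L, was measured on only 38.2% of its exon bases. The rest, 3126 of 5062 bases, is shared with a second model on the same strand. Read pairs that fall there are assigned to neither. Exons of the SYVN1 model also fall within the RefSeq bounds of MRPL49 and FAU. SEC61B, a translocon subunit, averaged 27.1 ± 4.68 CPM in banded and 21.8 ± 3.36 CPM in control animals (SD, n = 4 each).

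The PERK branch had the widest spread by its median, carried by 5 genes. In its 8 genes 0 were called higher and 1 lower (12.5%, against 6.97% of all genes). An unadjusted edgeR p under 0.05 was reached by 3, against 23.8% of all genes. Its median log2 fold change was -0.02, and its median coefficient of variation was 45.8% in banded and 22.4% in control animals. Over all tested genes these medians were 22.0% and 16.1%. The coefficient in banded animals was 166% for CHAC1, 116% for TRIB3, 60.1% for ASNS, 54.9% for PPP1R15A and 36.7% for ATF4, each above its value in controls. It was 22.7% for DDIT3, 17.1% for EIF2AK3 and 7.69% for ERO1A, each below its value in controls. The plot of values by animal shows banded 3 apart from banded 1, 2 and 4 in CHAC1, TRIB3 and ASNS.

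**Figure D2:**
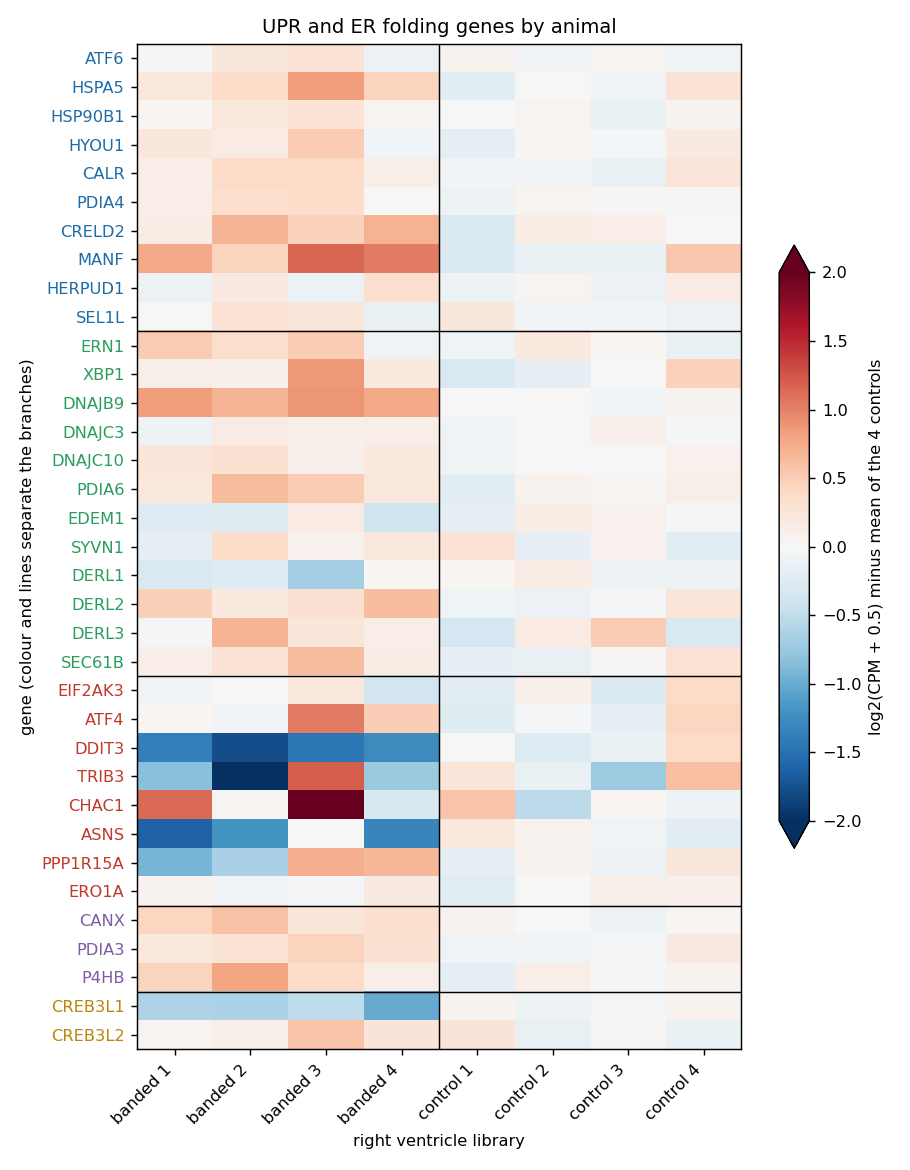
Log2(CPM + 0.5) of each gene (rows, in 5 blocks by branch) in each library (columns, banded 1 to 4 and then control 1 to 4), minus the mean of the 4 controls, with red above and blue below and the colour capped at 2. DDIT3 is blue in all 4 banded columns, ASNS in banded 1, 2 and 4, and TRIB3 and CHAC1 are reddest in banded 3, while most ATF6 and IRE1 branch genes are pale red in banded animals.

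DDIT3 encodes CHOP, a transcription factor of prolonged stress. It held 0.916, 0.569, 0.835 and 1.01 CPM in banded animals and 3.14, 2.55, 2.81 and 4.29 CPM in controls. Every banded value lay below every control, at 20 to 29 counts in banded and 88 to 130 counts in control libraries. The log2 fold change was -1.94 ± 0.32 (edgeR adjusted p = 0.00571), and the fall was called under each of the alternatives run. The DDIT3 model (chromosome 5, 22785441 to 22791134, minus strand) shares 793 of its 2127 exon bases with another model on the same strand that covers the same spliced exons, so the count comes from the 1334 bases that are not shared. The second model held 0 counts in all banded libraries and 0 to 8 counts in controls. Exons of the DDIT3 model also fall within the RefSeq bounds of MARS and MBD6, and the reference table gives no strand. The fall is therefore one of part of this model, and how much of the count comes from DDIT3 transcripts, or whether the spliced coding exons fell as much, was not tested.

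ASNS, asparagine synthetase and a target of ATF4, held 7.52, 10.2, 24.3 and 9.35 CPM in banded animals and 27.8, 25.3, 22.8 and 20.8 CPM in controls. Banded 1, 2 and 4 lay below every control, and banded 3 lay among them. Exons of the ASNS model also fall within the RefSeq bounds of LOC102161092. With all libraries the log2 fold change was -0.91 ± 0.33 and missed the threshold (edgeR adjusted p = 0.135), whereas without banded 3 it was -1.42 (edgeR adjusted p = 0.000599). DESeq2, which called 10.3% of all genes, and limma-voom with quality weights called ASNS lower on all 8 libraries (adjusted p 0.0386 and 0.00608).

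TRIB3, a pseudokinase induced by ATF4 and CHOP, held 1.93, 0.540, 9.61 and 2.09 CPM in banded animals and 4.64, 3.48, 2.14 and 6.11 CPM in controls. Banded 3 lay above all controls and the other banded animals below them. The log2 fold change was -0.21 ± 0.75 with all libraries and -1.43 without banded 3, and edgeR called neither. CHAC1, which degrades glutathione, held 1.45, 0.427, 13.8 and 0.209 CPM in banded animals and 0.821, 0.116, 0.421 and 0.330 CPM in controls. Its log2 fold change of 3.22 ± 1.36 was not called (edgeR adjusted p = 0.201) and was 0.72 without banded 3.

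ATF4 mRNA held 203, 190.0, 404 and 276 CPM in banded animals and 166, 194, 176 and 265 CPM in controls, and the log2 fold change was 0.42 ± 0.25 (0.15 without banded 3). PPP1R15A, which recruits a phosphatase that reverses the action of PERK, held 36.4, 44.5, 116 and 111 CPM in banded animals and 61.9, 73.5, 64.5 and 82.3 CPM in controls. Banded 1 and 2 lay below every control and banded 3 and 4 above every control, so that the group means hide a split (0.12 ± 0.37 with all libraries and -0.15 without banded 3). EIF2AK3 averaged 16.2 ± 2.77 CPM in banded and 17.1 ± 3.83 CPM in control animals, and ERO1A, the oxidase that recharges disulphide isomerases, 30.4 ± 2.34 CPM in banded and 29.6 ± 3.18 CPM in control animals (SD, n = 4 each).

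**Figure D3:**
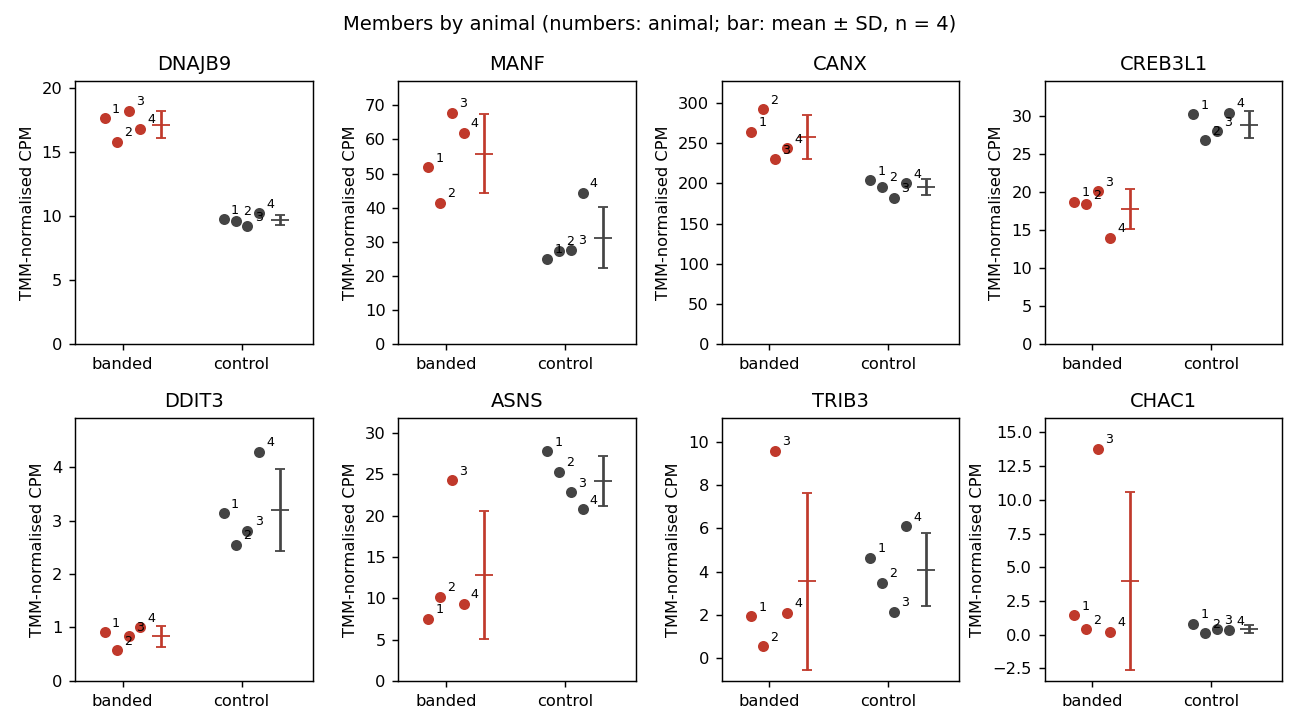
TMM-normalised CPM (y axis, from 0 or below where the error bar passes it) in each banded and control animal for 8 genes, with animal numbers beside the points and mean ± SD (n = 4) beside each group. DNAJB9, CANX, CREB3L1 and DDIT3 do not overlap between groups, whereas banded 3 sits apart from banded 1, 2 and 4 in ASNS, TRIB3 and CHAC1.

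Banded 3 had the highest value of all 8 libraries in 17 of the 35 genes, against 9 for banded 2, 4 for banded 4, 3 for control 4, 1 each for control 1 and control 2, and 0 for banded 1 and control 3. Leaving it out moved the log2 fold change by more than 0.3 in 3 of 35 genes, all of the PERK branch (CHAC1, TRIB3 and ASNS). Smaller changes also moved by over 1.5 times. Given first with all libraries and then without banded 3, log2 fold changes were 0.22 and 0.11 for HYOU1, 0.25 and 0.13 for CREB3L2, 0.31 and 0.19 for SEC61B, -0.18 and -0.31 for EDEM1, and -0.29 and -0.18 for DERL1. They were -0.08 and -0.17 for EIF2AK3, 0.10 and 0.03 for ATF6, 0.10 and 0.05 for SEL1L, and 0.07 and 0.14 for HERPUD1, none of them called either way. Without banded 3 edgeR called 4 members, DNAJB9 higher and DDIT3, ASNS and CREB3L1 lower, against 6.72% of all genes. In banded 3, transcripts of the mitochondrial genome took 30.5% of counts, against 35.9% to 39.7% in the other banded and 35.3% to 43.9% in control libraries. The summed level of 11 immediate-early and handling genes was 282, 439, 810.0 and 831 CPM in banded 1 to 4 and 452, 463, 943 and 928 CPM in controls 1 to 4. In it, 0 of 10 tested genes were called, and IER2 was at 0 in all libraries. Smooth muscle and pericyte markers summed to 1120, 1130, 2350 and 806 CPM in banded 1 to 4 and to 972 to 1270 CPM in controls, with 0 of 8 called and a median log2 fold change of -0.43. Of the sum in banded 3, CNN1 alone gave 1350 CPM, while MYH11 (40.8 CPM) and RGS5 (216 CPM) were at their lowest of the 8 libraries there. The part of these in the results was not tested.

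**Figure D4:**
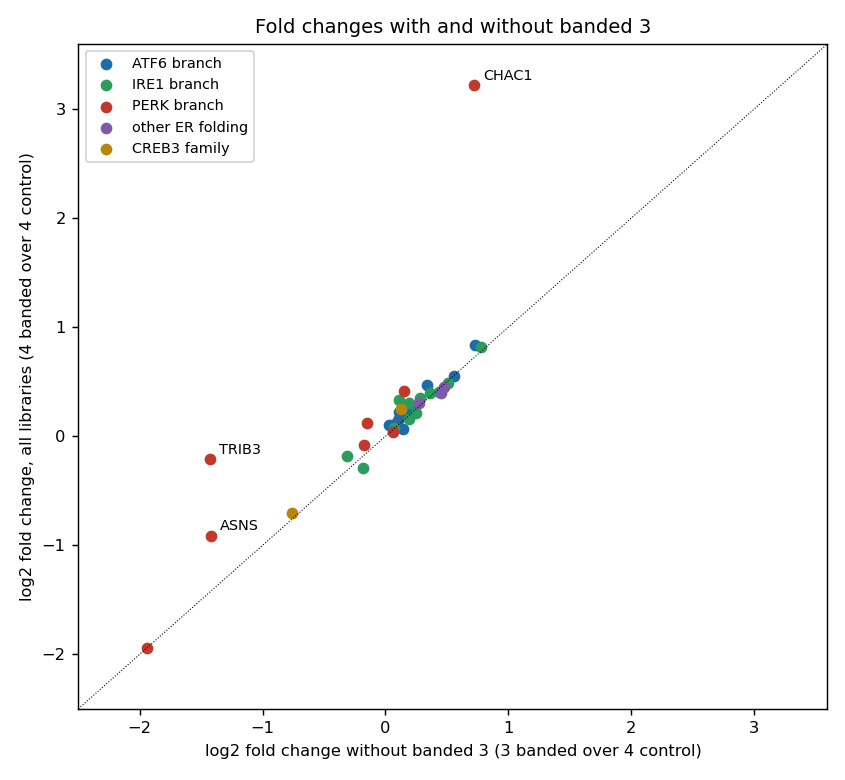
Log2 fold change of banded over control from all libraries (y axis) against that without banded 3 (x axis) for the 35 genes, coloured by branch, with the line of equality dotted. CHAC1 (3.22 and 0.72), TRIB3 (-0.21 and -1.43) and ASNS (-0.91 and -1.42) lie above the line, and the other genes lie within 0.3 of it.

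The authors' deposited table of log2 fold changes, coded as control over banded, gave ASNS 1.42 (adjusted p = 2.4e-12), TRIB3 1.43 (adjusted p = 0.0249) and CHAC1 -0.72 (adjusted p = 0.678). These are the values without banded 3 with the sign turned. Over 12959 genes with a deposited mean count above 10, the log2 fold changes of the authors' deposited table lay within 0.01 of a DESeq2 fit without banded 3 in 12959. They lay within 0.01 of a fit to all 8 libraries in 838, and of a fit without any 1 other library in 572 to 883. In the authors' deposited table the members called were MANF, DNAJB9 and CANX, higher in banded, and DDIT3, TRIB3, ASNS and CREB3L1, lower in banded, the same 7 that DESeq2 called here without banded 3, where it called 10.1% of all genes.

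In the remaining 3 folding genes every banded animal lay above every control, as in 7.66% of all genes, but none was called by edgeR. CANX, the membrane lectin chaperone calnexin, held 264, 292, 230.0 and 244 CPM in banded animals and 204, 196, 182 and 200.0 CPM in controls. Its log2 fold change was 0.40 ± 0.13 (edgeR adjusted p = 0.0843), and DESeq2 and limma-voom called it higher (adjusted p 0.0293 and 0.0319). PDIA3, the isomerase that works with calnexin and calreticulin, held 162, 169, 189 and 172 CPM in banded animals and 133, 132, 136 and 158 CPM in controls (0.31 ± 0.12, edgeR adjusted p = 0.152). P4HB, a disulphide isomerase and a subunit of collagen prolyl hydroxylase, held 163, 208, 156 and 132 CPM in banded animals and 106, 132, 118 and 126 CPM in controls (0.45 ± 0.15, edgeR adjusted p = 0.102). In P4HB banded 4 and control 2 were equal as rounded, so the separation there is the narrowest of the 3.

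The CREB3 family transcription factors are cut from the membrane like ATF6, and CREB3L1 is known in mice for its control of collagen genes in bone. CREB3L1 held 18.7, 18.4, 20.1 and 14.0 CPM in banded animals and 30.2, 26.8, 28.0 and 30.4 CPM in controls. No banded value reached the controls, and the log2 fold change was -0.70 ± 0.14 (edgeR adjusted p = 0.0136). The call ended narrowly without control 1 (edgeR adjusted p = 0.0505). Its model lies on chromosome 2 (16186210 to 16220937, minus strand). CREB3L2, its close relative, held 32.6, 33.8, 46.8 and 37.9 CPM in banded animals and 37.8, 28.3, 31.9 and 28.8 CPM in controls and was not called (0.25 ± 0.15, edgeR adjusted p = 0.344). The difference between the responses of CREB3L1 and CREB3L2 was not tested. Fibroblast markers summed to 8420 to 14300 CPM in banded and 11100 to 14300 CPM in control animals, with 1 of 10 called higher and 1 lower and a median log2 fold change of -0.20, and their part in the fall of CREB3L1 was not tested.

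Genes outside the list that act in the same pathway were read in 6 further lists of 130 tested genes, of which 11 were called higher and 1 lower. Against a background of 3.47% higher and 3.50% lower over all genes, the translocon and signal peptide processing list held the most, with 6 of 26 higher and 0 lower. Its median log2 fold change was 0.25. In 11 of the 26 genes every banded animal lay above every control, against 7.66% of all genes. SSR3, a translocon-associated subunit, averaged 55.6 ± 9.30 CPM in banded and 26.9 ± 3.31 CPM in control animals (SD, n = 4 each; 1.05 ± 0.15, edgeR adjusted p = 0.00266). SPCS3, a subunit of signal peptidase, averaged 98.1 ± 4.81 CPM in banded and 56.6 ± 8.61 CPM in control animals (edgeR adjusted p = 0.00594), and its partner SPCS1 was higher too (80.1 ± 11.0 against 52.9 ± 7.37 CPM, edgeR adjusted p = 0.0309). RPN2 and DAD1, subunits of the enzyme that adds glycans to new proteins, had log2 fold changes of 0.75 ± 0.14 and 0.55 ± 0.14 (edgeR adjusted p 0.0117 and 0.0348). The call of SPCS1 ended without any 1 of controls 1 to 3 or without banded 1 or 4 (0.0583 to 0.107), that of DAD1 without any 1 of those, without banded 3 (0.0541 to 0.115) or with library size alone (0.0633), and that of RPN2 without control 1 (0.051). Exons of the SSR3 model also fall within the RefSeq bounds of KCNAB1, and those of the SPCS1 model within the bounds of GLT8D1. The most abundant gene of the list per length, SSR2, was not called (0.17 ± 0.15, edgeR adjusted p = 0.545). Without control 1 the list had 2 genes called higher and without control 2 or control 3 it had 3.

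**Figure D5:**
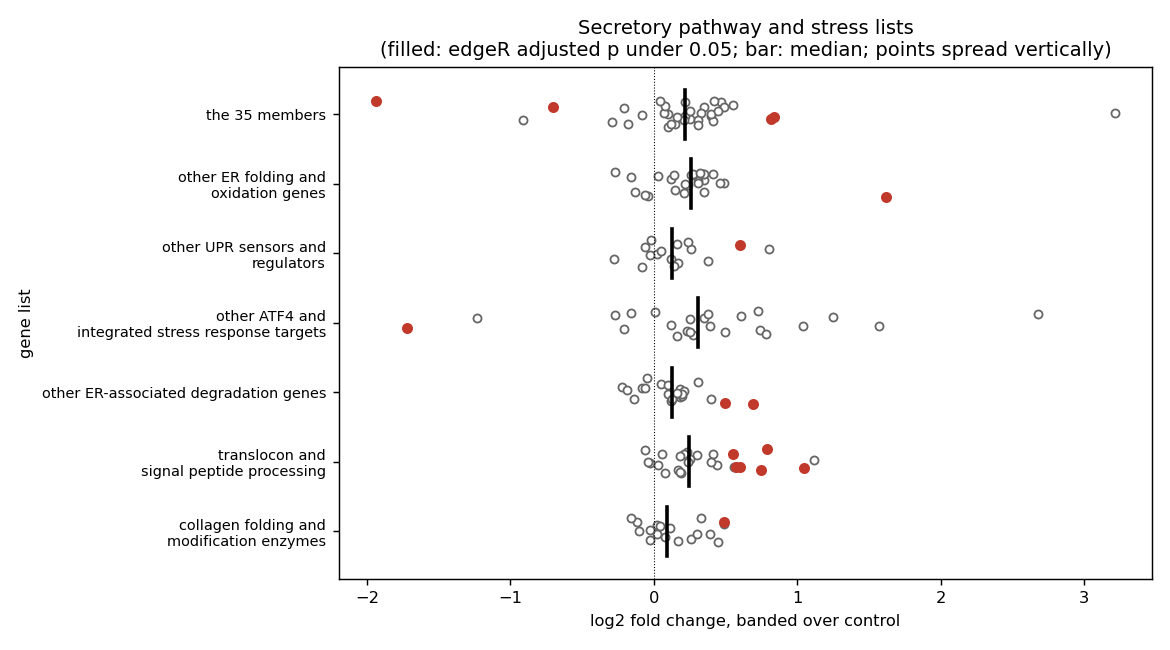
Log2 fold change of banded over control (x axis) for the 35 genes and for the tested genes of 6 further lists (rows), with red points for an edgeR adjusted p under 0.05 and a bar at each median. The translocon row holds 6 red points to the right of 0, and the ATF4 target row is the widest of the 6 further lists.

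Of 25 other folding and oxidation genes 1 was called higher and 0 lower. PDIA2, a disulphide isomerase, averaged 46.5 ± 17.0 CPM in banded and 15.2 ± 4.62 CPM in control animals (SD, n = 4 each), a log2 fold change of 1.62 ± 0.28 (edgeR adjusted p = 0.00891). Exons of its model also fall within the RefSeq bounds of ARHGDIG. The most abundant gene of that list per length, FKBP2, a prolyl isomerase of the ER, was not called (0.12 ± 0.16). Among 16 other sensors and regulators 1 was higher and 0 lower. It was WFS1, an ER membrane protein of calcium balance (58.0 ± 10.9 against 38.3 ± 1.99 CPM, edgeR adjusted p = 0.0295), whose call ended without any 1 control (0.0618 to 0.0965), without banded 1 (0.0681) or banded 4 (0.0562) and with library size alone (0.084). RTRAF, the most abundant of that list per length, had a log2 fold change of 0.02 ± 0.16.

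Among 21 other degradation genes 2 were higher and 0 lower. SELENOS, a membrane selenoprotein of the degradation complex, had a log2 fold change of 0.69 ± 0.18 and UBXN4, which recruits the ATPase VCP to the ER, one of 0.50 ± 0.13 (edgeR adjusted p 0.0401 and 0.0482). The call of SELENOS ended without any 1 of banded 1, 3 and 4 and controls 1 to 3 (0.063 to 0.127), and that of UBXN4 in each fit that leaves out 1 library except that without banded 3 (0.0513 to 0.151), with library size alone (0.0897), without robust estimation (0.0515) and with no filter (0.0541). RNF5, a ubiquitin ligase, was the most abundant per length and was not called (-0.14 ± 0.15). Of 18 collagen folding enzymes 1 was higher and 0 lower: PPIB, a prolyl isomerase that acts on collagen, averaged 97.6 ± 2.96 CPM in banded and 69.5 ± 5.01 CPM in control animals (0.49 ± 0.11, edgeR adjusted p = 0.0234), a call that ended without control 1, 2 or 3 (0.0764 to 0.0871) and with library size alone (0.0876). Exons of the PPIB model also fall within the RefSeq bounds of SNX22. SERPINH1, the collagen chaperone and the most abundant of that list per length, was not called (0.08 ± 0.18).

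Among 24 other targets of ATF4 and the integrated stress response 0 were called higher and 1 lower (4.17%, against 6.97% of all genes). An unadjusted edgeR p under 0.05 was reached by 5 of the 24, against 23.8% of all genes. NUPR1, a stress-induced chromatin protein, fell to 3.82 ± 0.837 CPM in banded animals, against 12.6 ± 4.90 CPM in controls (SD, n = 4 each; -1.72 ± 0.28, edgeR adjusted p = 0.00521). Exons of its model, on chromosome 3 from 18402935 to 18511087, also fall within the RefSeq bounds of LOC110260087 and ATXN2L, so it may not count NUPR1 alone. DDIT4, an inhibitor of mTOR signalling and the most abundant of the list per length, averaged 97.4 ± 40.6 CPM in banded and 47.4 ± 29.2 CPM in control animals and was not called (edgeR adjusted p = 0.272). Banded 3 was the highest of the 8 libraries in 14 of these 24 genes. The median difference from the control mean over these 24 was 0.81 on the log2 scale in banded 3. It was 0.20, 0.16 and 0.00 in banded 1, 2 and 4. In the translocon list banded 3 was also the highest in 14 of the 26 genes. The median difference there was 0.49 in banded 3 and 0.18, 0.28 and 0.31 in banded 1, 2 and 4. How often banded 3 was highest over all genes was not counted.

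Markers of other cells were read beside these genes. The summed level of 10 macrophage markers was 988, 1390.0, 910.0 and 732 CPM in banded 1 to 4 and 487, 731, 643 and 739 CPM in controls 1 to 4, with 0 of 10 called and a median log2 fold change of 0.50. It overlapped between the groups only through banded 4 and control 4. Plasma and B cell markers, whose cells are rich in ER, summed to 10.3 to 18.1 CPM in banded and 12.6 to 18.6 CPM in control animals, with 0 of 8 tested genes called. Endothelial markers summed to 1000 to 1060 CPM in banded and 998 to 1160 CPM in control animals. Atrial cardiomyocyte markers summed to 490.0 to 652 CPM in banded and 333 to 400.0 CPM in control animals, with no overlap, 1 of 5 called higher (PAM, a peptide-amidating enzyme of the secretory pathway) and a median log2 fold change of 0.73. PAM gave 448 to 581 CPM of the sum in banded and 279 to 333 CPM in control animals. Adipocyte markers summed to 1130.0, 425, 416 and 736 CPM in banded 1 to 4 and to 509 to 647 CPM in controls, with 0 of 5 tested genes called. The part of these cells in the values above was not tested.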

How the data were processed

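Total RNA of right ventricular free wall was sequenced in bulk, 1 library per animal. Per the file headers, read pairs were counted on Ensembl release 106 gene models of Sscrofa11.1 by featureCounts 1.6.2 (mapping quality at least 10, strand setting 2). The deposited counts are whole and not normalised. That command named 24 libraries, of which 8 were analysed. The submitters' processing notes name Trimmomatic, HISAT2, Subread and DESeq2, with settings not given in the sources used here. In the authors' deposited comparison stand log2 fold changes (control over banded), their errors, a statistic (score), p-values and a mean signal, and no header states its model.

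Samples were grouped by treatment label. The members and lists were chosen with earlier results of these data known. Counts were filtered by filterByExpr (minimum count 10, minimum total 15) and scaled by TMM. Groups were compared by the quasi-likelihood test in edgeR 4.0.16 (robust fit, R 4.3.3), two-sided, and p-values were adjusted by Benjamini-Hochberg over all 13697 genes, with a threshold of 0.05. Standard errors are the log2 fold change over the square root of F. CPM are TMM-normalised, and CPM per kb divides by the exon length of the model. The test was tried on simulated data. All members are accounted for. Besides the models named in the results, exons of the ATF6, HSP90B1, DNAJC3, DERL3, P4HB, SSR2 and SERPINH1 models also fall within the RefSeq bounds of other genes. Of the other lists the text names the genes called (up to 5 by adjusted p) and the most abundant per length. Of these lists 138 genes matched a model and 130 were tested.

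The comparison was repeated with limma-voom and quality weights (limma 3.58.1), DESeq2 1.42.0, median-of-ratios scaling, library size alone, no filter, 50 counts in 4 libraries, no robust fit, no mitochondrial-genome genes, and each library left out. DESeq2 without banded 3 was added after seeing the data. The labels do not say how the animals were drawn, and p-values set the difference between groups only against the spread between these animals.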

Additional observations from a re-analysis of the deposited data

Results flagged for a closer look

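In 7 of the 70 groups of 4 animals examined for the 35 genes, 1 library stood far from the other 3 for the width of its group (chance gives about 1 in 20). The value was far above the others in banded 3 for XBP1 (114 CPM, others 67.1 to 71.1), TRIB3 (9.61 CPM, others 0.540 to 2.09), CHAC1 (13.8 CPM, others 0.209 to 1.45) and ASNS (24.3 CPM, others 7.52 to 10.2). It was above the others in control 4 for MANF (44.4 CPM, others 25.1 to 27.7) and PDIA3 (158 CPM, others 132 to 136). It was below the others in control 1 for PDIA4 (83.8 CPM, others 92.1 to 93.7).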

How the results depend on the processing

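No paired analysis was possible because the labels pair no banded animal with a control. Over 16 alternative settings 25 of the 35 members kept their direction and their side of the threshold (532 of 558 values kept both). Counts of calls moved as follows, and the cause was not tested. Leaving out a library changes both the number of animals and which animals are compared. DESeq2 called 1629 of all genes, against 954 by edgeR, and without banded 3 it called 1534. With 1 library left out, the number of all tested genes called was 399 to 962, the lowest being 399, 415 and 409 without control 1, 2 and 3. Members called were 1 to 2 higher and 1 to 3 lower with 1 library left out, and DESeq2 without banded 3 called 4 lower. PERK branch genes called lower were 2 with DESeq2 and 2 with limma-voom, 3 with DESeq2 without banded 3, and 1 to 2 with 1 library left out. The calnexin group had 1 called higher with DESeq2, with limma-voom and with DESeq2 without banded 3, against 0. With 1 library left out, ATF6 branch genes called higher were 0 to 1 and CREB3 family genes called lower 0 to 1. Of other folding and oxidation genes 2 were higher with DESeq2, also without banded 3, and 1 to 2 with 1 library left out. Of other sensors 2 were higher with DESeq2, 0 with library size alone and 0 to 1 with 1 library left out. Of other ATF4 targets 1 was higher with DESeq2 and 2 were lower with DESeq2 without banded 3. Of other degradation genes 1 was higher without robust estimation, with library size alone and with no filter, and 0 to 1 with 1 library left out. Of collagen enzymes 0 were higher with library size alone and 0 to 1 with 1 library left out. Translocon genes called higher were 2 to 7 with 1 library left out.

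Values that crossed 0 belonged to genes that edgeR did not call, of which TRIB3 was called lower by DESeq2 without banded 3 (adjusted p = 0.0226). Library size alone shifted all genes by a median of -0.10 (log2), and HERPUD1 was then -0.02, DNAJC3 -0.02, ERO1A -0.07, RTRAF -0.07 and SERPINH1 -0.01. PPP1R15A was -0.32 with limma-voom and -0.14 with DESeq2 without banded 3, where SERPINH1 was -0.07. With 1 library left out the ranges were -0.02 to 0.14 for HERPUD1, -0.17 to 0.07 for EIF2AK3, -1.43 to 0.16 for TRIB3, -0.15 to 0.36 for PPP1R15A, -0.03 to 0.08 for ERO1A, -0.07 to 0.18 for FKBP2, -0.07 to 0.15 for RTRAF and -0.07 to 0.17 for SERPINH1. Low counts limit DDIT3, CHAC1, TRIB3, SYVN1 and DERL3, and 4 animals per group limit small changes.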
